A study of Mus musculus with 6 samples.

Results

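Cytosolic ribosomal protein genes encode the protein parts of the small and large subunits of the cytoplasmic ribosome. They were chosen by symbol from the gene table of 6 mouse brain libraries, as Rps or Rpl followed by a number and at most the letters a, x, y or l, together with Rpsa and Rplp0 to Rplp2. Pseudogene symbols and the Rps6k kinases were left out. The rule found 81 of 33696 genes, of which 31 belong to the small subunit, 47 to the large subunit and 3 to the stalk of the large subunit. It used no measured value.

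The libraries were made from dissociated brain cells with a droplet kit that counts the 3′ ends of RNA molecules by unique molecular identifiers (UMIs). Wild-type mice with vehicle (WT vehicle), wild-type mice with bilirubin (WT bilirubin) and mice labelled TRPM2 Mg KO with bilirubin gave 2 libraries each. Bilirubin is the bile pigment formed when haem is broken down, and TRPM2 is a calcium-permeable channel opened by oxidative stress. The labels do not expand "Mg", and no knockout group with vehicle was analysed here, so the genotype could be compared only under bilirubin. The strain, the driver of the knockout, dose, duration, age, sex and brain region are not given in the sources used here. Whether replicates came from separate mice is not stated either, so the p-values below rest on library-to-library spread alone, part of which may be technical.

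Each ribosome needs a single copy of nearly every ribosomal protein, and surplus proteins are degraded, so cells make them in matched amounts. Their mRNAs are short, abundant and long-lived, and most begin with a run of pyrimidines at the start of the transcript (a 5′ terminal oligopyrimidine, or TOP, sequence) through which the mTOR kinase and the LARP1 protein set how much of each mRNA is translated. Lymphocytes are known for a large share of these mRNAs among their transcripts.

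That run was looked for at the annotated start sites of the members. RefSeq promoters on GRCm38.p6 were found for 61 of the 81 members by symbol; 20 members, Rpl29, Rpl3, Rpl21 and Rps29 among them, had none in the table. A C followed by at least 4 pyrimidines, beginning within 5 bases of the annotated start, was found for 25 of 61 members, or 41.0%, and for 18.6% of all 27025 genes with a promoter. Runs that began earlier and crossed the start, as in Rpl7a and Rpl35, were not counted. The windows below run from 15 bases before to 15 bases from the start, 5′ to 3′ on the gene's strand, and are shown because these members set the ends of the expression differences described below or have a clear run. Capitals mark the run, and a window without capitals has none by this definition.
Rps28 (chr17:33824548-33824577, minus strand): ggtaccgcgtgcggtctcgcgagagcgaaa
Rpl37 (chr15:5116598-5116627, plus strand): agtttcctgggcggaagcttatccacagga
Rpl38 (chr11:114668565-114668594, plus strand): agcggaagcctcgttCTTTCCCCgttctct
Rpl41 (chr10:128549154-128549183, minus strand): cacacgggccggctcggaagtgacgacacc
Rplp2 (chr7:141447636-141447665, plus strand): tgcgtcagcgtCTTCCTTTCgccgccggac
Rps6 (chr4:86857353-86857382, minus strand): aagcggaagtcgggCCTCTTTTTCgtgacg
Rps15a (chr7:118116133-118116162, minus strand): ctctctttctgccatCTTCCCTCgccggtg
Rpl4 (chr9:64173372-64173401, plus strand): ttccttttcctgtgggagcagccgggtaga
Rps7 (chr12:28635939-28635968, minus strand): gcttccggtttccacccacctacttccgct

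The run lies at the start in Rpl38, whose bilirubin difference was among the lowest, and in Rplp2, Rps6 and Rps15a. By this definition it is not found in Rps28, Rpl37 and Rpl41, whose bilirubin differences were also among the lowest. Nor is it found in Rpl4 and Rps7, whose differences were among the highest. In Rpl4 a stretch of pyrimidines ends before the annotated start. Which starts these cells used was not measured. Whole promoters of 300 bases were searched on both strands for letters known from this gene family: CCGGAAGT, the core bound by ETS factors such as GABPA, stood in 12 of 61 members (19.7%) and 4.31% of all genes. The YY1 core AAGATGGC stood in 5 members (8.20%) and 3.19% of all genes. The TATA box letters TATAAA stood in 6 members (9.84%) and 15.7% of all genes. Matches of different motifs may share letters. The definition of the run was set after the start windows had been seen, and a match is not a bound site.

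The 6 libraries held 95014 barcodes and between 24165563 and 63402551 UMIs each, and of 20003, 24306, 20834, 8593, 16274 and 4134 cells kept in the 6 libraries, between 24.1% and 54.1% could be placed in a class. A kept cell was placed, or gated, in 1 of 18 classes where at least 3 of 10 markers of that class were detected, and at least 2 times as many as of any other class; no ribosomal protein gene is a marker. Microglia, endothelial, choroid plexus, ependymal, astrocyte and oligodendrocyte gates had at least 20 cells in every library and were tested. All 10 markers of its own class were detected in each of these gates in every library. Markers of other cells were present too, above all those of the choroid plexus, whose summed level in the astrocyte gate was 2600 counts per 1000000 UMIs (CPM) in WT vehicle library 1 and 10053 to 16476 CPM in the other 5. Barcodes shared between any pair of libraries came to 0.290% to 0.943% of the smaller one. Trpm2 had 18.9 and 15.6 CPM in microglia of the WT vehicle libraries, 19.0 and 32 with bilirubin and 16.6 and 22.2 in the knockout libraries. These levels overlap, and 3′ tags outside a deleted part would be counted as before, so they check nothing about the knockout.

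Among cell classes, the T or NK gate stood apart. There, ribosomal protein genes made up a median of 27.6% of all UMIs (19.9% to 30.0% over 6 libraries). The tested classes followed with medians of 12.8% in endothelial cells, 11.2% in microglia, 9.33% in ependymal cells, 9.24% in choroid plexus, 8.95% in astrocytes and 8.36% in oligodendrocytes. B cells had 21.9% (4 libraries with at least 5 cells), fibroblasts 12.6% and mural cells 10.7%, and at the low end were excitatory neurons with 6.22%, neutrophils with 5.46% and erythroid cells with 4.02%. The monocyte or dendritic gate, with 18 cells in all, had 25.4% in WT bilirubin library 2, the 1 library with at least 5 of them, where B cells lay below it. These smaller gates hold few cells, 627 in T or NK, 446 in fibroblasts, 167 in neutrophils and 60 in B cells over all libraries.

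The order was the same in every library only in part. T or NK cells were above each of the 6 tested classes and fibroblasts in 6 of 6 libraries, by 1.87 to 7.02 times. Endothelial cells were above microglia in 6 of 6 libraries, at a median of 1.10 times, and microglia above ependymal, choroid plexus, astrocyte and oligodendrocyte gates in 6 of 6. Neighbours below that were not separated: choroid plexus was above ependymal cells in 4 of 6 libraries, ependymal above oligodendrocytes in 3 of 6, and astrocytes above choroid plexus in 4 of 6. Endothelial cells and fibroblasts crossed as well.

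**Figure D1:**
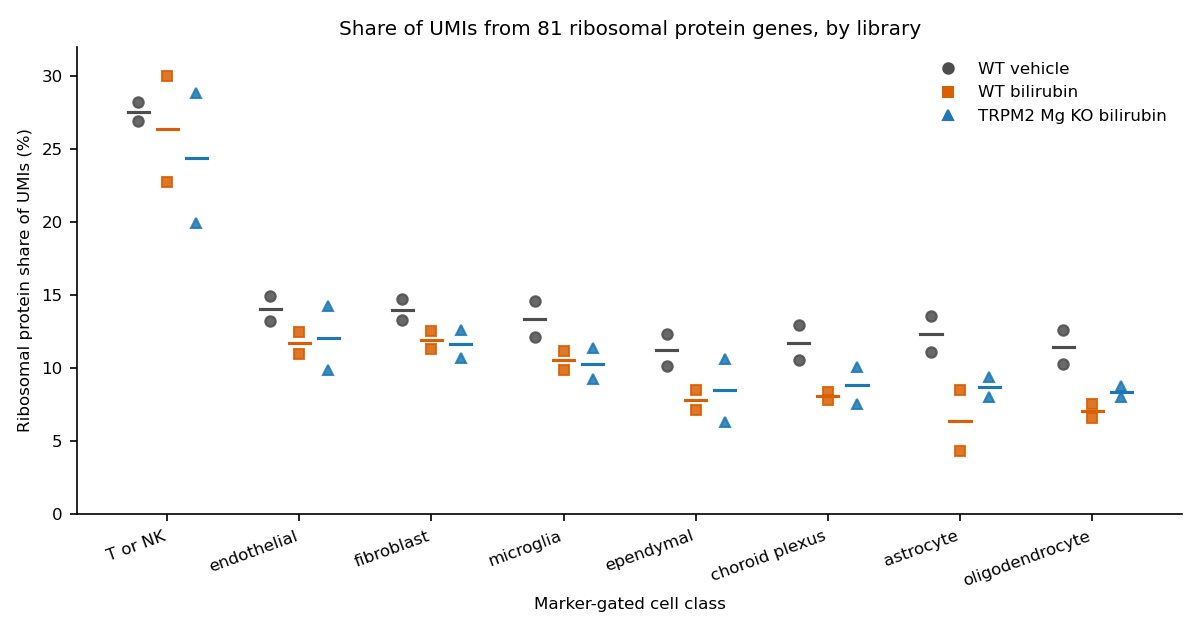
Ribosomal protein share of all UMIs (vertical axis, percent) in the 6 tested classes and the T or NK and fibroblast gates (horizontal axis). Points are libraries and bars the means of 2; T or NK libraries lie between 19.9% and 30.0%, above all others, and WT bilirubin libraries lie below WT vehicle libraries in each class but T or NK.

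Tested gene by gene, each class was compared with the mean of the other 5 in a single edgeR fit over the 6 libraries, with library as a block. Of 78 members tested, 44 were higher and 4 lower in microglia, against 28.5% and 32.3% of all 11372 genes tested. In endothelial cells 38 were higher and none lower (19.4% and 22% of all genes). In the other direction, 57 members were lower and none higher in ependymal cells, 63 and none in astrocytes, and 47 and none in oligodendrocytes, against 19.1%, 19.8% and 25% of all genes lower and 19.5%, 20.9% and 16.4% higher. With total UMIs in place of TMM scaling, 63 members were higher in endothelial cells (24.9% of all genes), and 18, 21 and 28 were lower in ependymal cells, astrocytes and oligodendrocytes (8.82%, 10.7% and 19.2% of all genes); the directions of these medians held. Adding the T or NK and fibroblast gates to the classes compared turned the median member of microglia from 0.25 to -0.03 on the log2 scale and that of endothelial cells from 0.25 to -0.02.

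Choroid plexus, the epithelium that makes cerebrospinal fluid, depended on the scaling. With TMM, 71 of 78 members were higher and none lower, against 32.7% and 46% of all genes, and the median log2 fold change was 0.50. Scaled to total UMIs, 11 were higher and 28 lower, against 16% and 69% of all genes, and the median was -0.13, while the median of all genes moved from -0.22 to -0.85. Markers of this class alone summed to 114410 to 222808 CPM in its own gate. The median member lay above the median gene under both scalings.

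Rpl36al, a copy of Rpl36a without introns, was higher in choroid plexus by a log2 fold change of 1.33 (SE 0.09, edgeR adjusted p = 6.87e-17; 0.71 with total UMIs). Rps27l, a paralogue of Rps27 known as a p53 target, was higher there by 1.72 (SE 0.07, adjusted p = 8.17e-23; 1.10 with total UMIs) and lower in astrocytes by -0.71 (SE 0.09, adjusted p = 3.76e-08) and in microglia by -0.52 (SE 0.09, adjusted p = 2.56e-06). The least changed called members of choroid plexus, Rpl12 at 0.23 and Rpl27a at 0.23, turned to -0.40 and -0.39 with total UMIs.

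In microglia, the X-linked genes Rpl10 and Rps4x were the highest, at 0.61 (SE 0.08, adjusted p = 3.08e-08) and 0.60 (SE 0.11, adjusted p = 1.78e-05). In endothelial cells Rpl38, which is needed for translation of particular Hox mRNAs in the embryo, led at 0.76 (SE 0.10, adjusted p = 8.26e-08), with Rpl37a at 0.53 (SE 0.10, adjusted p = 3.28e-05). Rps28 at 0.26 and Rpl13a at 0.27 were the least changed called members there, and Rps28 was at -0.06 when the T or NK and fibroblast gates joined the comparison. On the low side were Rpl29 (-0.73, SE 0.12) and Rpl10 (-0.69, SE 0.11) in ependymal cells, Rpl36al in astrocytes (-0.60, SE 0.10) and Rpl41, the shortest ribosomal protein, and Rpl38 in oligodendrocytes (-0.70, SE 0.11, and -0.55, SE 0.12). Rpl26 and Rpl11 in ependymal cells, Rpl32 and Rps13 in astrocytes and Rpl23 and Rpl10 in oligodendrocytes were called at -0.23 to -0.28 and no longer passed with total UMIs.

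The make-up of the total was compared too. Each member was taken as a share of the ribosomal protein UMIs of its class, a measure that no library scaling touches. Over the 76 members with at least 0.2% of that total, the class with the highest median share exceeded the lowest by a median of 1.31 times, with 65 members under 1.5 times and 3 over 2 times. The small subunit took 38.0% to 43.6% of the ribosomal protein UMIs over all tested classes and libraries, and the 3 stalk genes, whose proteins recruit translation factors, took 2.45% to 4.19%.

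Rps27l varied most. It made up 0.510%, 0.734%, 0.797%, 0.837%, 0.706% and 0.718% of the ribosomal protein UMIs of choroid plexus in the order WT vehicle 1 and 2, WT bilirubin 1 and 2 and knockout 1 and 2, and 0.179%, 0.259%, 0.277%, 0.203%, 0.227% and 0.257% in microglia. The ranges do not overlap, and the medians differ 3.0 times. Its partner Rps27 did not share this: its median was 0.747% in choroid plexus, its lowest class, and 0.873% in microglia.

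Rpl36al showed the same class in front, with 1.02% to 1.15% in choroid plexus and 0.498% to 0.886% in the 5 other classes, so that no library overlapped. Its partner Rpl36a also had its highest median in choroid plexus, 0.569% against 0.439% in endothelial cells, its lowest class, or 1.30 times, and was higher there in 6 of 6 libraries. Rpl41 had a median of 7.18% in choroid plexus and 3.35% in microglia, and Rps15 0.486% and 0.257%. Rpl38 had its highest median in ependymal cells, 1.95% against 1.03% in microglia, but its range over libraries was wide (0.791% to 2.13% in microglia alone). Rpsa, the laminin receptor precursor, was highest in oligodendrocytes (median 2.20%) and lowest in choroid plexus (1.31%). Rps27l, Rpl36al, Rpl41, Rps15, Rpl38 and Rpsa were each higher in their highest than in their lowest class in 6 of 6 libraries.

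**Figure D2:**
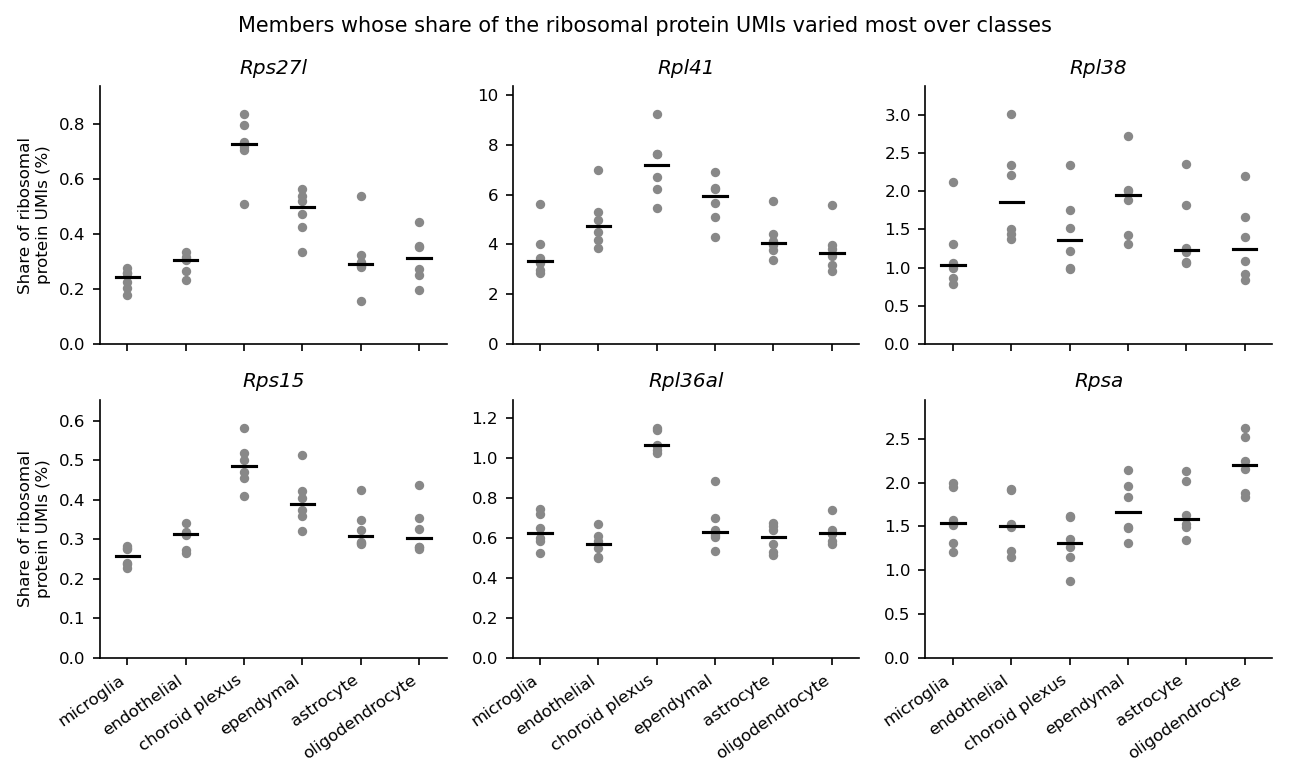
Share of the ribosomal protein UMIs (vertical axes, percent) for 6 of the members that varied most over the 6 tested classes (horizontal axis). Grey points are the 6 libraries and black bars their medians; Rps27l, Rps15 and Rpl36al have their highest bar in choroid plexus.

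Tissue-restricted paralogues had few UMIs or none. Rpl10l, known from the testis, had 0 UMIs in all kept cells, which allows up to 0.0121 CPM by counting error (3 counts of the total). Rpl3l, known from striated muscle, had 69 UMIs in all kept cells, at 0.142 to 0.529 CPM per library. Rpl39l had 215 UMIs, at 0.651 to 1.28 CPM per library. Of 81 members, 78 passed the filter on low counts in all 6 classes, and Rpl39l also in microglia; the group differences below cover those.

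With bilirubin, the summed ribosomal protein share was lower in wild-type brain cells. In microglia it was 14.6% and 12.1% in the WT vehicle libraries and 9.89% and 11.2% in the WT bilirubin libraries. In astrocytes it was 13.5% and 11.1% with vehicle and 8.52% and 4.28% with bilirubin, with means of 12.3% ± 1.73 and 6.40% ± 3.0 (SD, n = 2 libraries per group). In oligodendrocytes it was 12.6% and 10.3% with vehicle and 7.56% and 6.55% with bilirubin.

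Both vehicle libraries lay above both bilirubin libraries in each of the 6 tested classes and in fibroblasts. The narrowest gaps, between the lower vehicle and the higher bilirubin library, were 0.732 percentage points in fibroblasts, 0.741 in endothelial cells and 0.949 in microglia, and the widest 2.74 in oligodendrocytes. Vehicle and bilirubin means differed by -2.84 points in microglia, -2.35 in endothelial cells, -3.66 in choroid plexus, -3.42 in ependymal cells, -5.92 in astrocytes and -4.41 in oligodendrocytes. T or NK cells had 28.2% and 26.9% with vehicle and 22.7% and 30.0% with bilirubin, which overlap. A sum over chosen genes was given no test, and the 6 classes come from the same 4 libraries, so they are not independent evidence.

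Other measures differed between these libraries as well. WT vehicle library 1 had the highest ribosomal protein share of the 6 libraries in each of the 6 tested classes, and it also held the most neuronal transcripts outside neurons: a list of 8 summed to 15426 CPM in its microglia and to 5063, 2311, 1612, 3621 and 4491 CPM in the other 5 libraries in order. Mitochondrially encoded genes summed in microglia to 7664 and 7539 CPM with vehicle, 46490 and 4443 with bilirubin and 37466 and 27589 in the knockout; with their UMIs left out of the total, the median difference over classes was -3.38 points in place of -3.54. Immediate-early genes, which cell dissociation can induce, summed in microglia to 6184 and 6050 CPM with vehicle and 10484 and 11638 with bilirubin. By edgeR, 7, 6 and 6 of the 8 neuronal transcripts fell with bilirubin in endothelial, choroid plexus and oligodendrocyte gates, where 4.51%, 0.791% and 1.89% of all genes were called lower. Of 13 mitochondrially encoded genes 10 rose in choroid plexus and 1 in endothelial cells, and of 12 immediate-early genes 3 rose in endothelial cells and 1 fell in choroid plexus; of all genes, 0.211% were called higher in choroid plexus and 1.68% in endothelial cells. Without WT vehicle library 1 the median difference over classes was -2.39 points, and without library 2 it was -4.69. The part of these measures in the ribosomal protein difference was not tested.

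Gene by gene, few differences passed the test. In oligodendrocytes, 3 of 78 members fell with bilirubin, against 1.89% of all 7626 genes lower. In the other 5 classes edgeR called no member, where 0%, 4.51%, 0.791%, 0% and 0.0177% of all genes were called lower in microglia, endothelial, choroid plexus, ependymal and astrocyte gates. At an unadjusted p under 0.05 the members counted 10, 3, 7, 5, 37 and 40 in microglia, endothelial, choroid plexus, ependymal, astrocyte and oligodendrocyte gates, all of them lower, against 10.6%, 11.6%, 8.68%, 2.93%, 7.7% and 11% of all genes. DESeq2 called 1 member in microglia, 6 in astrocytes and 7 in oligodendrocytes, all lower, and none in the other 3; it called 1.59%, 1.6% and 1.43% of the 7225, 1001 and 3782 genes with an adjusted p lower in those 3 classes, and 1.01%, 0.85% and 0% in endothelial, choroid plexus and ependymal gates.

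The count rested on single libraries and on the cells kept. The median kept cell had 7.21% mitochondrial UMIs in WT bilirubin library 1 and 0.657% in WT bilirubin library 2. A limit of 5% and leaving out WT bilirubin library 1 are therefore not independent alternatives. With at most 5% mitochondrial UMIs per cell, edgeR made 70 calls of a member in a class, all lower, out of 468 such tests (5.37% of the tests of all genes over the classes). Of these, 61 were in astrocytes, where 9.73% of all genes were called lower. Without WT bilirubin library 1 it made 99 such calls of 469 (5.04% over all genes), 74 in astrocytes (9.01% of all genes) and 25 in oligodendrocytes (6.47% of all genes). Without WT vehicle library 1 it made none (0.0643% over all genes), with 6 lower at an unadjusted p under 0.05; DESeq2 was not run without a library. With the replicate number as a block, 2 members were called, both lower in choroid plexus (3.14% of all genes).

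The size of the difference was clearer than the calls. The median member lay at a log2 fold change of -0.43 in microglia, -0.32 in endothelial cells, -0.33 in choroid plexus, -0.59 in ependymal cells, -0.97 in astrocytes and -0.68 in oligodendrocytes, while the median of all genes was at most 0.05 from 0. All 78 members tested were below 0 in astrocytes and 76 of 78 in oligodendrocytes, against 46.2% and 47.2% of all genes. In all 6 classes, which share the same libraries, 64 members were below 0, and the share of all genes for this was not counted. Levels of WT bilirubin lay below WT vehicle without overlap for 40 of 79 members in microglia and 26, 57, 55, 63 and 62 of 78 in endothelial, choroid plexus, ependymal, astrocyte and oligodendrocyte gates, against 20.4%, 19.7%, 27.1%, 13.5%, 18% and 20.4% of all genes. For 23 members this held in all 6 classes, as it did for 3.6% of the 3754 genes tested in all of them.

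The astrocyte value depended on WT bilirubin library 2. The median member was at -0.58 without that library and at -1.57 without library 1. Its 217 astrocytes had a median of 1703 UMIs against 1174 to 1474.5 in the other libraries, and markers of endothelial cells and microglia in them summed to 88.2 and 490 CPM, below the 335 to 801 and 739 to 1021 CPM of the other 5 libraries. Its astrocyte markers, at 8620 CPM, were above the 4587 to 6556 CPM of the others. When the difference itself was tested in an edgeR fit over the 4 wild-type libraries, added after these values were seen, the effect in astrocytes minus that in the other classes was called for 0 of 78 members (1.92% of all genes in either direction). It was at an unadjusted p under 0.05 for 54 members, against 11.8% of all genes, and its median was -0.59 over the members and -0.07 over all genes; DESeq2 was not run for it. No member was called in the other 5 classes (1.43%, 0.0387%, 0.0232%, 0.0387% and 0.875% of all genes), where 0, 1, 1, 0 and 0 were at an unadjusted p under 0.05 in microglia, endothelial, choroid plexus, ependymal and oligodendrocyte gates, against 10.8%, 7.39%, 9.95%, 7.03% and 10.8% of all genes.

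**Figure D3:**
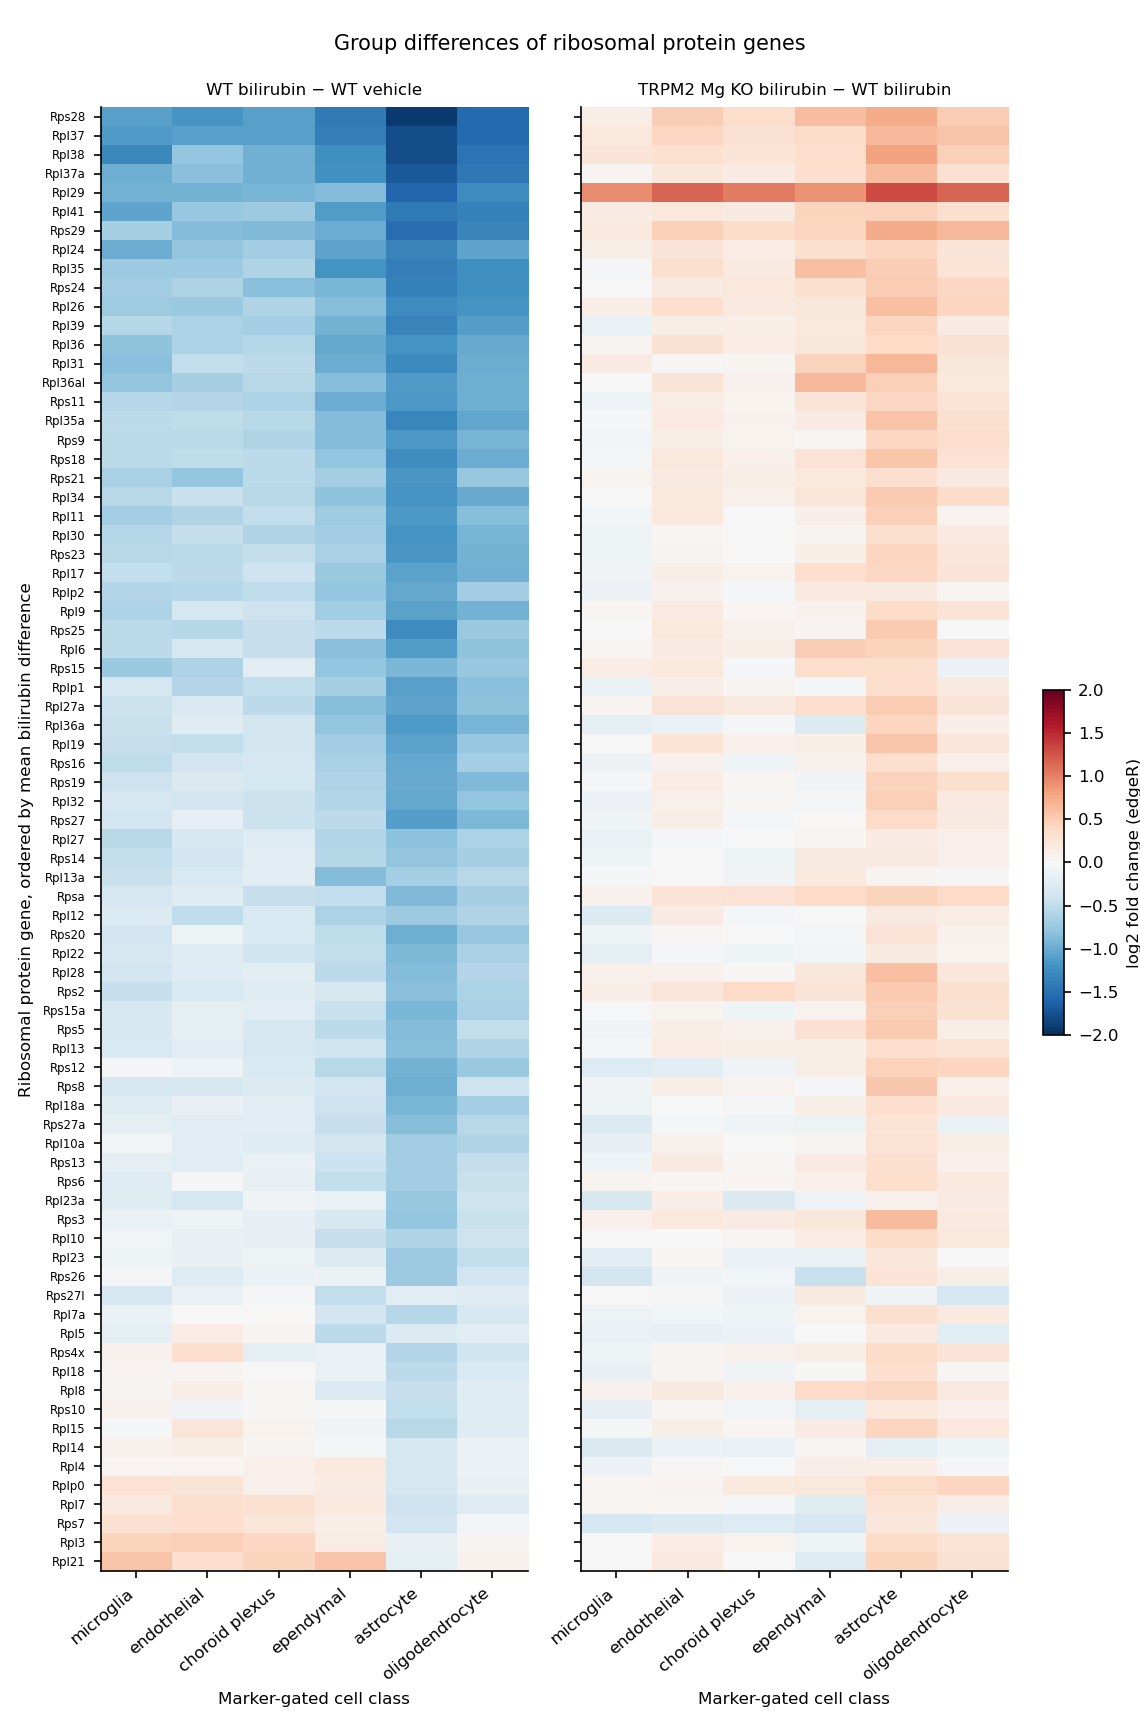
Log2 fold changes (colour, edgeR) of ribosomal protein genes (rows, ordered by their mean bilirubin difference) in 6 cell classes (columns), for WT bilirubin against WT vehicle on the left and the knockout with bilirubin against WT bilirubin on the right. Astrocytes are darkest on the left with a median of -0.97, and Rpl29 stands out on the right with 0.90 to 1.31.

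Small-subunit protein Rps28 had the lowest mean difference. In oligodendrocytes its level was 3000 and 1317 CPM with vehicle, 721 and 878 CPM with bilirubin and 941 and 1329 CPM in the knockout. Vehicle library 1 was far above library 2, and both were above the bilirubin libraries. The log2 fold change was -1.56 (SE 0.40, edgeR adjusted p = 0.0493, from 2 libraries a group), and -0.77 (adjusted p = 0.741) without WT vehicle library 1. In microglia, with 3997 and 1744 CPM against 1053 and 1941 CPM, the groups overlapped and the difference was -1.09 (SE 0.47, adjusted p = 0.244).

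Rpl37, a large-subunit protein, had the same order of libraries with vehicle and bilirubin in oligodendrocytes: vehicle library 1 above vehicle library 2, and both above bilirubin. Its oligodendrocyte level was 5172 and 2449 CPM with vehicle, 1334 and 1502 CPM with bilirubin and 1806 and 2422 CPM in the knockout. The knockout libraries lay between the bilirubin libraries and vehicle library 2. The log2 fold change was -1.55 (SE 0.40, edgeR adjusted p = 0.0488), and -0.84 (adjusted p = 0.719) without WT vehicle library 1.

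Rpl29 differed from both in its replicates. In oligodendrocytes it stood at 724 and 698 CPM with vehicle, 381 and 259 CPM with bilirubin and 739 and 701 CPM in the knockout, with a log2 fold change for bilirubin of -1.25 (SE 0.32, edgeR adjusted p = 0.0493). Its vehicle libraries lay close together, and the knockout libraries lay close to them. The value was -1.16 without WT vehicle library 1 and between -0.96 and -1.58 without either bilirubin library, yet among the alternatives the adjusted p passed only with DESeq2, without the filter on low counts, with at most 5% mitochondrial UMIs and without WT bilirubin library 1. In microglia the levels were 767 and 858, 506 and 418, and 925 and 842 CPM, with a difference of -0.94 (SE 0.31, adjusted p = 0.157) and an adjusted p of 0.0400 by DESeq2.

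At the other end, a few members did not share the difference. Rpl3, which lines the peptidyl transferase centre, had 636 and 892 CPM in microglia with vehicle and 1334 and 935 CPM with bilirubin, a difference of 0.45 (SE 0.34, adjusted p = 0.526). Rpl21 had 537 and 837 CPM against 1044 and 1203 CPM, at 0.57 (SE 0.33, adjusted p = 0.38). For both genes the bilirubin libraries lay above the vehicle libraries in microglia without overlap. The same held there for 5 of 79 members and 31.9% of all genes.

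Rpl4, Rplp0, Rpl7 and Rps7 were above 0 in 4 of 6 classes, and Rpl3 and Rpl21 in 5 of 6. Rplp0, the stalk base, had 1110 and 1643 CPM in microglia with vehicle and 2210 and 1436 CPM with bilirubin, at 0.28 (SE 0.37, adjusted p = 0.724). The other stalk genes lay lower: Rplp1 at -0.33 (SE 0.31) and Rplp2 at -0.59 (SE 0.34) in microglia, neither passing the test. Rps7 stood at 0.30 (SE 0.33) there and Rpl4 at 0.05 (SE 0.26).

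Rps6, Rpsa, Rps25 and Rpl10a lay between these ends, while Rpl41 and Rps29 were near the low end, and none of them passed the test. Rps6, the target of ribosomal S6 kinases, was at -0.26 (SE 0.28) in microglia and -0.69 (SE 0.42) in astrocytes, and Rpsa at -0.33 (SE 0.35) and -0.88 (SE 0.54). Rps25, used by some viral and cellular internal ribosome entry sites, was at -0.54 (SE 0.32) and -1.25 (SE 0.42), and Rpl10a at -0.05 (SE 0.31) and -0.69 (SE 0.47). Rpl41 was at -1.06 (SE 0.45) and -1.42 (SE 0.62), and Rps29 at -0.66 (SE 0.46) and -1.52 (SE 0.55).

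Paralogue pairs gave both like and unlike values, and none of these genes passed the test. Rps27 was at -1.11 (SE 0.46) and Rps27l at -0.21 (SE 0.40) in astrocytes, while Rpl36a and Rpl36al were both at -1.13 (SE 0.44 each). Neither difference within a pair was tested. Rps4x was at 0.09 (SE 0.35) in microglia and -0.59 (SE 0.55) in astrocytes, Rpl10 at -0.06 (SE 0.30) and -0.61 (SE 0.41) and Rpl39 at -0.58 (SE 0.42) and -1.34 (SE 0.50).

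**Figure D4:**
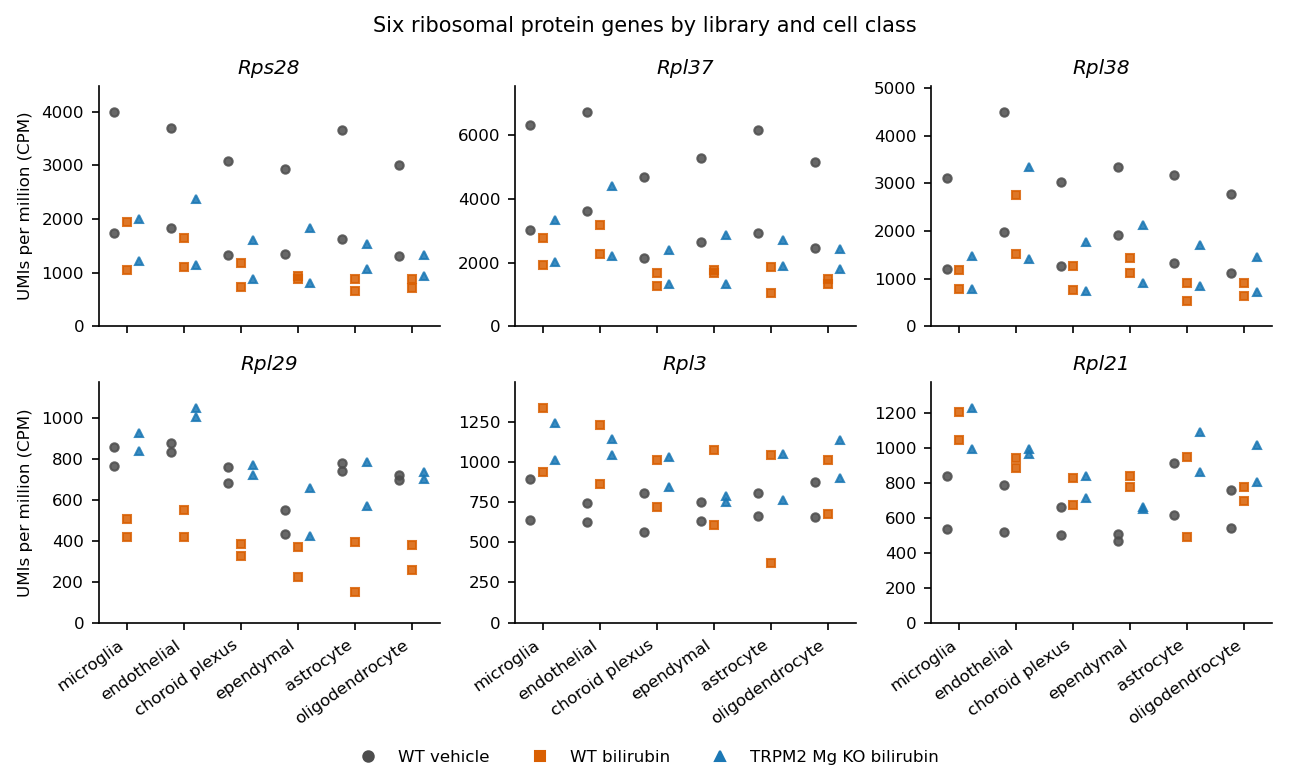
Levels (vertical axes, CPM) of 6 ribosomal protein genes in the 6 tested classes (horizontal axis), with a point for each library. WT vehicle library 1 is the highest in each class for Rps28, Rpl37 and Rpl38 (3000 CPM against 721 to 1329 CPM in the other 5 libraries for Rps28 in oligodendrocytes), while both WT bilirubin libraries lie below the other 4 for Rpl29 in each class.

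Members with short mRNAs had the larger median differences. This was looked at after the values above had been seen. Over 78 members, mRNA length (the median over protein-coding APPRIS principal transcripts in GENCODE M21) and the bilirubin log2 fold change had a Spearman correlation of 0.44 to 0.51 in the 6 classes; genes are not independent replicates and the classes share libraries, so this is a description. The 26 shortest, with 345 to 667 bases, had a median of -0.57 in microglia and -1.15 in astrocytes, and the 26 longest, with 939 to 5130 bases, had -0.30 and -0.80. The longest annotated lengths were those of Rps15a and Rps20, at 5130 and 3706 bases. Which transcripts the cells used was not measured, so single members may be misplaced in this order. Among the shortest are Rps28, Rpl38, Rps29, Rpl41 and Rpl37a, and Rpl3, Rpl4, Rpl7, Rpl21 and Rplp0 have 1067 to 1538 bases. Other members did not follow this order: Rpl37 and Rpl29, which fell in oligodendrocytes, have 835 and 710 bases and Rps7, among the highest differences, has 887, all between the 26 shortest and the 26 longest. Rps10, with 644 bases, is among the 26 shortest and lay below vehicle without overlap in 0 of 6 classes.

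Other genes of like length also lay lower. In microglia the 225 tested genes outside the family with the same lengths as the shortest members had a median of -0.51, with 80% below 0, and 9935 genes with the lengths of the longest members had a median of 0.09, with 43.0% below 0. All non-member genes up to the length limit of the shortest members summed to 92504 and 91106 CPM in microglia of the vehicle libraries, 54047 and 52298 CPM with bilirubin and 61972 and 60552 CPM in the knockout libraries. The vehicle libraries lay above all 4 libraries with bilirubin. The part of this in the difference of the members was not tested. In choroid plexus the median of such short genes was -0.17, against -0.52 for the members. In astrocytes it was -0.51 against -1.15, and in oligodendrocytes -0.43 against -0.95. In ependymal cells it was -0.55 against -0.79, and in endothelial cells -0.45 against -0.54. Genes outside the family with the lengths of the middle members had a median of -0.24 in microglia. Within the members' lengths, medians of other genes thus rose from the shortest to the longest, as in the family. The order was the same in each other tested class. The correlation of length and fold change in microglia was taken over all 12999 non-member genes with a length, also those outside the members' lengths. It was -0.11, opposite in sign to that within the family. It was -0.17 in endothelial cells, -0.24 in choroid plexus, -0.04 in astrocytes and -0.09 in oligodendrocytes. In ependymal cells it was 0.14, the same sign as within the family. The share of ribosomal protein UMIs from the 26 shortest members was 37.8% and 30.6% with vehicle, 27.3% and 32.9% with bilirubin and 28.3% and 32.9% in the knockout in microglia, so that groups overlapped.

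**Figure D5:**
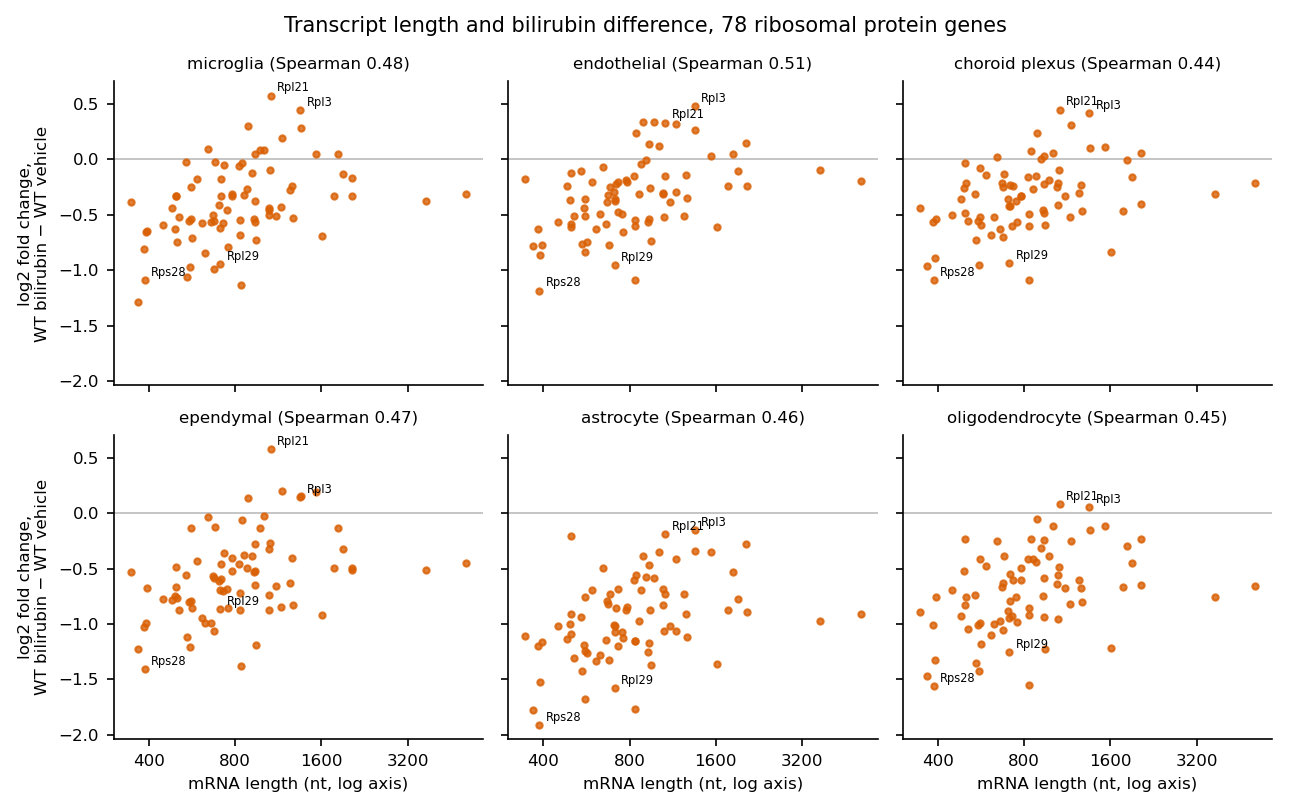
Log2 fold change of WT bilirubin against WT vehicle (vertical axes) against mRNA length (horizontal axes, bases on a log scale) for 78 ribosomal protein genes, a panel for each class. Spearman correlations run from 0.44 to 0.51, with Rps28 at the lower left and Rpl3 and Rpl21 at the top.

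Genes that work with the ribosome were counted from lists, each with its median. At an unadjusted p under 0.05 by edgeR, the share of all genes lower with bilirubin ran from 2.93% in ependymal cells to 11.6% in endothelial cells. In either direction it ran from 5.98% to 19.9% in the same classes. Of 18 translation factors and other TOP genes, edgeR called none in any class, with 0 to 1 in each direction at an unadjusted p under 0.05 and medians of 0.03 in microglia, 0.12 in endothelial cells, 0.13 in choroid plexus, -0.24 in ependymal cells, -0.44 in astrocytes and -0.14 in oligodendrocytes. Their summed level in microglia was 6515 and 7270 CPM with vehicle and 7735 and 7171 CPM with bilirubin, which overlap. Of 22 ribosome biogenesis genes, of which 6 to 22 passed the filter on low counts, edgeR called none, with at most 1 lower at an unadjusted p under 0.05 and medians of 0.07 in microglia and -0.12 in astrocytes; the nucleolar helicase Ddx21 was at -0.95 (adjusted p = 0.144) in endothelial cells. Of 17 genes of mTOR control, of which 4 to 17 passed the filter, edgeR called none, with at most 2 higher at an unadjusted p under 0.05 and medians from -0.10 in endothelial cells to 0.17 in choroid plexus. Ddit4, an mTOR inhibitor induced by stress, was at 1.21 (adjusted p = 0.136) in oligodendrocytes. The summed level of the 17 genes was 518 and 570 CPM with vehicle and 636 and 736 CPM with bilirubin in microglia, and 530 and 586 against 673 and 667 CPM in astrocytes. In each of the 6 tested classes both WT bilirubin libraries lay above both vehicle libraries in this sum, which was given no test. The gap was narrow in endothelial cells, with 575 and 603 CPM against 607 and 754 CPM.

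Of 78 mitochondrial ribosomal proteins, encoded in the nucleus for the ribosome of mitochondria, edgeR called none, with at most 3 higher and 7 lower in a class at an unadjusted p under 0.05 and medians from -0.34 in ependymal cells to 0.10 in choroid plexus. Of 7 divergent paralogues, Rps27l and Rpl36al among them, of which 3 to 5 passed the filter, edgeR called none, with at most 1 in each direction at an unadjusted p under 0.05 and a median of -0.45 in microglia. In the sum of the 7 paralogues, both WT bilirubin libraries lay below both vehicle libraries in each tested class, which was given no test. Rps27l and Rpl36al are members of the family, so the sum in part repeats their values. In microglia the sum was 2176 and 1768 CPM with vehicle and 1427 and 1533 CPM with bilirubin. DESeq2 was not counted over these lists.

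Among libraries with bilirubin, the knockout and wild type overlapped in most classes. The summed share was 9.24% and 11.3% in knockout microglia against 9.89% and 11.2% in wild type, and 8.04% and 9.39% against 8.52% and 4.28% in astrocytes. The groups overlapped in each tested class except oligodendrocytes, where the knockout had 7.98% and 8.73% and wild type 7.56% and 6.55%. Over the 6 classes the median difference was 0.69 points; it was 2.27 without knockout library 1 and turned to -0.91 without knockout library 2. Knockout library 2 had few cells, with 31 oligodendrocytes and 68 astrocytes, while its median of 2075 UMIs per kept cell was the highest of the 6 libraries.

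With bilirubin in both genotypes, neither edgeR nor DESeq2 called a member in any class, where edgeR called 0.00686%, 0.163%, 0.0682%, 0%, 0% and 0% of all genes in microglia, endothelial, choroid plexus, ependymal, astrocyte and oligodendrocyte gates. At an unadjusted p under 0.05 the members counted 1, 1, 1, 0, 1 and 1, against 3.47%, 3.03%, 2.45%, 1.55%, 4.22% and 5.44% of all genes. Medians were -0.03 in microglia, 0.13 in endothelial cells, 0.05 in choroid plexus, 0.15 in ependymal cells, 0.41 in astrocytes and 0.20 in oligodendrocytes. The astrocyte median was -0.01 without WT bilirubin library 2, and 38 astrocyte members were called higher without WT bilirubin library 1, against 4.65% of all genes.

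The member with the smallest p in each class was Rpl29, singled out here after its values were seen. In choroid plexus it had 683 and 761 CPM with vehicle, 385 and 326 CPM in WT bilirubin and 723 and 772 CPM in the knockout. In endothelial cells it had 834 and 880, 549 and 418, and 1005 and 1049 CPM. Knockout libraries were above both WT bilirubin libraries without overlap in 6 of 6 classes, which no other member reached and which held for 0.186% of the 3754 genes tested in all classes, and they overlapped the vehicle libraries in 5 of 6. The log2 fold changes were 0.94 in microglia, 1.16 in endothelial cells, 1.03 in choroid plexus, 0.90 in ependymal cells, 1.31 in astrocytes and 1.16 in oligodendrocytes, with SEs of 0.31 to 0.48, and none passed after adjustment (lowest edgeR adjusted p = 0.814, in oligodendrocytes). The classes share the same libraries, so they repeat a single contrast of 2 against 2.

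Rpl29 has 3 named pseudogene copies in the GENCODE M21 annotation, and 59 of the 81 members have at least 1, with 297 in all. The deposited gene table lists 5 such copies. Reads that match a gene and a copy equally may be lost or moved between them, in a way not given in the sources used here. Levels of single members were therefore not ranked against each other, and the shares of the ribosomal protein UMIs given above carry the same limit.

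Knockout libraries with bilirubin were also set against wild type with vehicle, which shares its vehicle libraries with the first comparison. The summed share was lower without overlap in microglia, choroid plexus, astrocytes and oligodendrocytes and overlapped in endothelial and ependymal cells. Differences of means were -3.07, -2.92, -3.60 and -3.11 points in the first 4 and -2.0 and -2.77 in the last 2. Median members were at -0.46 in microglia, -0.23 in endothelial cells, -0.31 in choroid plexus, -0.49 in ependymal cells, -0.58 in astrocytes and -0.57 in oligodendrocytes. By edgeR and DESeq2 no member was called, where edgeR called 0%, 1.75%, 0.109%, 0%, 0.00887% and 0% of all genes in the order above; 3, 0, 2, 1, 1 and 20 members were lower at an unadjusted p under 0.05, against 2.83%, 9.6%, 5.26%, 2.43%, 2.37% and 3.93% of all genes.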

How the data were processed

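Single-cell RNA libraries of mouse brain were analysed, 2 for each of 3 groups taken from the labels. The authors deposited UMI counts per gene and barcode, not normalized, with lists of barcodes and genes; the matrices were written by Cell Ranger 9.0.1, per the file headers. Per the submitters' processing notes, Cell Ranger 8.0.0 and Scanpy 1.9.6 were used; mm10 and GRCm39 are both listed there, and which build the counts rest on is not stated. Coordinates and promoters are those of RefSeq on GRCm38.p6, and mRNA lengths those of GENCODE M21.

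Kept cells had 500 UMIs or more, 300 genes or more and no more than 15% mitochondrial UMIs, and were gated by markers. No doublet caller was run. Cells stayed ungated where no class met the marker rule given in the Results. A gated cell could still hold markers of other classes, though fewer than of its own. Counts were summed per library and class, and shares of summed UMIs and CPM were computed. Groups were compared per class with edgeR 4.0.16 (quasi-likelihood test, TMM scaling, filterByExpr, all 6 libraries in a fit with 3 groups, Benjamini-Hochberg adjustment over all genes tested, threshold 0.05), under R 4.3.3 with limma 3.58.1. Classes were compared with library as a block. DESeq2 1.42.0, other scalings, gates and cell filters and leaving out each library were alternatives. The test between classes of the bilirubin effect, the T or NK and fibroblast classes, the split by mRNA length and the counts over all 6 classes were added after results were seen. Scripts were tested on simulated data.

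The members, markers and gene lists were chosen with earlier results of these data known. Named were members called between groups, the 2 highest and 2 lowest called members of each class with at least 50 CPM, members whose share varied most over classes, a set of members and paralogue pairs with known roles, and genes of smallest p in each list; others, such as Rpl3, Rpl21, Rps7, Rpl4 and Rpl7, were named after their values were seen. The lists held translation factors and TOP genes, ribosome biogenesis, mTOR control, divergent paralogues, mitochondrial ribosomal proteins, mitochondrially encoded genes, immediate-early genes and neuronal transcripts. Intervals and floors cover counting error only. Some results that the rule would name are not reported here.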

Additional observations from a re-analysis of the deposited data

How the results depend on the processing

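Summed over the 6 classes, 3 calls of a member were made for bilirubin. The count dropped to 0 with library totals, with size factors by median of ratios, with only the 4 libraries compared, in cells of 1000 to 5000 UMIs and without the 5% of cells with the most UMIs; it was 14 with DESeq2, 13 without the filter on low counts, 1 with a looser gate and 70 with at most 5% mitochondrial UMIs. Leaving out a library gave 0 to 99. For the knockout under bilirubin the count was 0, and 0 to 39 without a library. Against vehicle it was 0, with 3 at 5% mitochondrial UMIs and 0 to 7 without a library. The cause was not tested. Replicate numbers are shared by groups without a stated pairing, and same-numbered libraries deviated together with correlations of only -0.20 to 0.10 over all genes; over the members alone, vehicle and WT bilirubin gave -0.36 to -0.65; with the replicate block the bilirubin count was 2 and both knockout counts were 0. The median differences in share kept their direction (-2.39 to -4.69 points for bilirubin, -1.77 to -4.20 for the knockout against vehicle) except for the knockout under bilirubin, at -0.91 without knockout library 2. Medians of members that turned sign were -0.0091 for the knockout in astrocytes without WT bilirubin library 2 (up to 1.01 without library 1), 0.10 for the knockout against vehicle in endothelial cells without knockout library 1 (down to -0.61 without library 2), -0.13 for choroid plexus with library totals, and -0.034 and -0.023 for microglia and endothelial cells with the T or NK and fibroblast gates added. With those gates Rps28 in endothelial cells was at -0.060, Rpl12 in choroid plexus at -0.14 and Rpl27a at -0.022; with library totals the latter were at -0.40 and -0.39. The fewest UMIs of a tested class in a library were the 109827 of 31 oligodendrocytes in knockout library 2.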
